A study of Saccharomyces cerevisiae with 14 samples.

Results

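The mitochondrial pyruvate carrier of budding yeast was followed in 14 expression arrays through its 3 subunit genes, MPC1 (YGL080W), MPC2 (YHR162W) and MPC3 (YGR243W). All probe sets annotated to these genes were taken. That gave 3 probe sets, 1 for each gene, out of 9275 probe sets and 5656 genes in all. The genes were chosen by earlier results of these same arrays. Which values chose them is not stated, and the higher MPC3 signal without the histone H4 tail was taken to be the reason. Values of the carrier genes in the H4 comparison are therefore given as a description, without a test. Whether signals without the H3 tail also entered the choice is not known, which limits the tests of the carrier genes there.

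The arrays held total RNA from congenic strains of Saccharomyces cerevisiae that carried a histone gene on a plasmid, harvested in mid-log growth in complete synthetic medium. In 4 arrays (H3del) the H3 allele was H3del(1-28), with residues 1 to 28 of the tail deleted. The wild-type H3 strain gave another 4 arrays (H3WT). Both carried H3 on a LEU2-marked plasmid and grew without leucine and uracil. In 3 arrays (H4del) the H4 allele was H4del(2-26), with residues 2 to 26 deleted. The wild-type H4 strain gave another 3 arrays (H4WT). These carried H4 on a TRP1-marked plasmid and grew without tryptophan and uracil, so the H3 and H4 strains also differ in plasmid and medium. The sources used here do not give the number of clones, whether each array had its own culture, or whether chromosomal histone genes remained. The spread behind each p-value is therefore that of these arrays and may be technical.

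The carrier sits in the inner mitochondrial membrane and brings pyruvate, the end product of glycolysis, from the cytosol into the matrix. There pyruvate feeds the pyruvate dehydrogenase complex and the synthesis of valine, leucine and alanine. The working carrier pairs Mpc1 with either Mpc2 or Mpc3. In yeast the pair with Mpc2 is known as the form of fermenting cells and the pair with Mpc3 as the form of respiring cells. MPC2 and MPC3 are paralogs, and cells growing fast on glucose are known to keep MPC3 low.

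Values are MAS5 signals on a linear scale, as deposited. Log2 differences were taken after an offset of 16.9 had been added to each signal, which understates changes of dim probe sets. Errors beside log2 differences are limma's standard errors (SE). The arrays were hybridized on 5 days, numbered in order of date. Each array had been scaled to a common mean, and in such bulk RNA more cells with a transcript cannot be told apart from more of it per cell. The labels were not checked on the histone genes, since the sources used here do not place their probes relative to the deleted residues.

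MPC3, the subunit of the respiratory form, had a signal several times higher without either tail. H3del arrays had 703.2, 672.4, 471.5 and 692.6, against 89.2, 89.7, 140.1 and 128.2 in H3WT (replicates 1 to 4). The lowest H3del array lay above the highest H3WT array by a wide margin, and the means were 635 ± 110 and 112 ± 26.3 (SD, n = 4 each). The log2 difference was 2.35 ± 0.31, a 5.08-fold increase with a 95% interval from 3.21-fold to 8.04-fold (limma, adjusted p = 0.000153). This placed MPC3 15th from the top of 6492 tested probe sets. MPC3 was the only one of the 3 genes to pass the threshold in H3del, and 5.21% of tested probe sets rose there. Groups without overlap and with the H3del arrays higher were found for 7.90% of tested probe sets. Over the wild-type arrays alone the mean log2 signal of MPC3, 6.80, lay under the dimmest tested probe set at 7.17, so the gene entered the test through its signal in the deletion arrays. In the fit without a filter on dim probe sets its adjusted p was 0.000257 in limma.

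H4del arrays had MPC3 signals of 539.3, 432.1 and 700.0, against 39.2, 59.9 and 172.7 in H4WT (replicates 1 to 3). Again the groups did not overlap, as was the case with the H4del arrays higher for 14.3% of tested probe sets. The means were 557 ± 135 and 90.6 ± 71.9 (SD, n = 3 each), and relative to its mean H4WT varied most of the 4 groups (coefficient of variation 79.3%). The log2 difference was 2.59 ± 0.36, or 6.03-fold. Its size depended on the offset, from 1.94 with an offset of 82.9 to 2.87 with 0.9. Without H4WT replicate 3, the array with 172.7, it was 3.10.

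**Figure D1:**
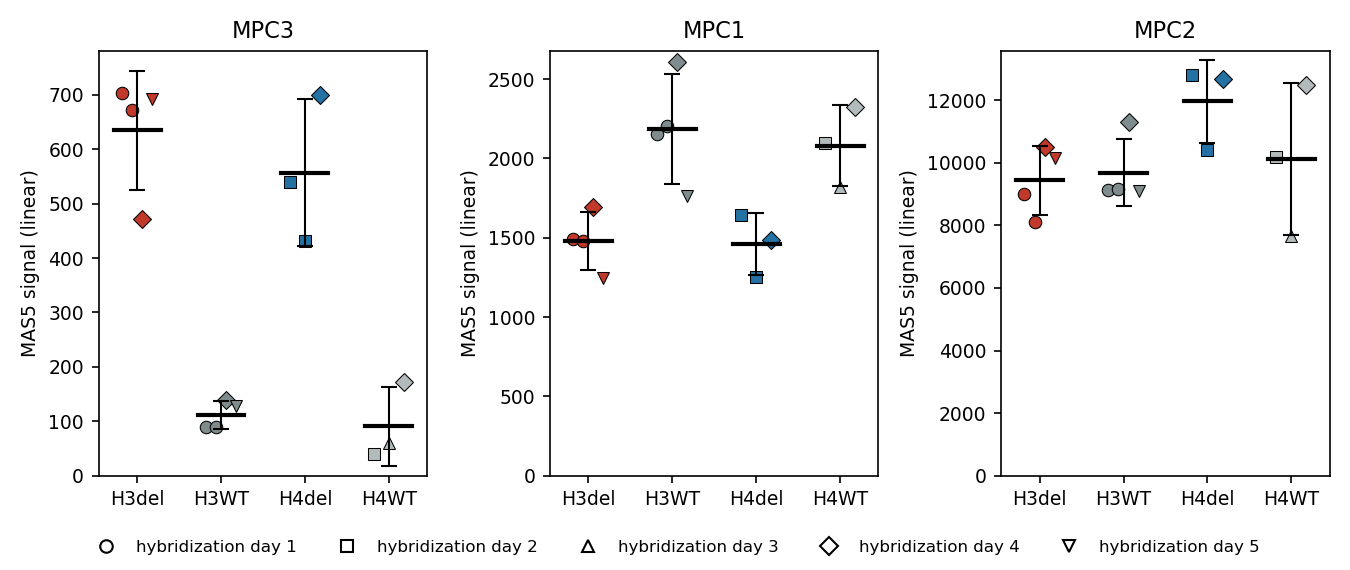
MAS5 signal (linear, axes from 0) of MPC3, MPC1 and MPC2 on each array, with the mean as a bar and the SD as whiskers. Point shapes give the hybridization day. All 7 deletion arrays lie above all 7 wild-type arrays for MPC3 and below all of them for MPC1, while the groups overlap for MPC2. Within an arm, 7.90% of tested probe sets were higher without overlap in H3del and 14.3% in H4del, and 6.87% and 19.0% were lower. The share that separates all 7 from all 7 was not taken.

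The 2 arms were on partly different days, so the MPC3 difference was also taken within each day. For H3del against H3WT the signals were 688 and 89.5 on day 1 (2 arrays each), 472 and 140 on day 4 and 693 and 128 on day 5 (1 array each). The log2 differences were 2.73, 1.64 and 2.29. For H4del against H4WT they were 3.16 on day 2, with mean signals of 486 (2 arrays) and 39.2 (1 array), and 1.92 on day 4, with 700.0 and 173. MPC3 was thus higher in the deletion on every day that held both groups, and in both arms the smallest difference was that of day 4. On that day H3WT, H4WT and H4del each had their highest signal and H3del its lowest. Without the 4 arrays of day 4 the log2 difference was 2.58 in H3del (limma, adjusted p = 1.79e-05) and 2.93 in H4del, an alternative chosen after seeing the data.

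The 4 groups ordered by mean MPC3 signal as H3del, H4del, H3WT and H4WT. The step between H4del and H3WT was the only one without overlap, 2.15 on the log2 scale. H3del and H4del differed by 0.19 and H3WT and H4WT by 0.44 ± 0.34 on that scale, and arrays of the neighbouring groups overlapped in both cases. Between the wild types 3.40% of tested probe sets passed the threshold. For MPC3 the sign turned with the day as a block, at -0.27 ± 0.37. The H3 tail effect minus the H4 tail effect was -0.25 for MPC3, and 0.12 without H4WT replicate 1.

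MPC1, the subunit common to both forms, was lower without either tail, by far less than MPC3 was higher. H3del arrays had 1491, 1481.2, 1692.7 and 1247.8, against 2151.9, 2206.5, 2610.8 and 1764.4 in H3WT. The highest H3del array lay just under the lowest H3WT array. The means were 1478 ± 182 and 2183 ± 346 (SD, n = 4 each), and the log2 difference of -0.55 ± 0.17 missed the threshold (limma, adjusted p = 0.0583). It passed with the replicate number as a block (adjusted p = 0.00693 in limma) and with the day as a block (adjusted p = 0.00505). It also passed without a filter on dim probe sets (adjusted p = 0.0495). Of the tested probe sets 2.46% fell in H3del, or 6.76% with the replicate block and 9.33% with the day block, and 6.87% were lower without overlap between the groups.

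In H4del arrays MPC1 had 1645.3, 1253.6 and 1487.4, against 2096, 1817.8 and 2327.2 in H4WT. The groups did not overlap, as was the case with the H4del arrays lower for 19.0% of tested probe sets. The means were 1462 ± 197 and 2080 ± 255 (SD, n = 3 each), a log2 difference of -0.51 ± 0.19, which was -0.31 with quantile normalization. Within days the MPC1 differences were much alike, at -0.55, -0.62 and -0.49 on days 1, 4 and 5 in H3del and -0.54 and -0.64 on days 2 and 4 in H4del. The order of the group means was H3WT, H4WT, H3del and H4del. The wild types overlapped and differed by 0.06 ± 0.18 on the log2 scale, the deletions overlapped and differed by 0.02, and the gap of 0.49 between H4WT and H3del had no overlap.

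MPC2, the subunit of the fermentative form, showed no difference beyond its spread. H3del arrays had 9010.2, 8101.7, 10497.4 and 10143.6, against 9138.4, 9176.5, 11299.6 and 9111.3 in H3WT. The log2 difference was -0.04 ± 0.15, with a 95% interval from -0.36 to 0.29, that is, between 0.777-fold and 1.22-fold (limma, adjusted p = 0.927). H4del arrays had 12787.3, 10415.9 and 12672.4, against 10185.2, 7656.1 and 12494.4 in H4WT, with overlap and a log2 difference of 0.26 ± 0.18. On day 4, where 1 array of each H4 group was hybridized, the difference was 0.02. Mean signals ordered as H4del (11959), H4WT (10112), H3WT (9681) and H3del (9438), and every pair of neighbours in that order overlapped.

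**Figure D2:**
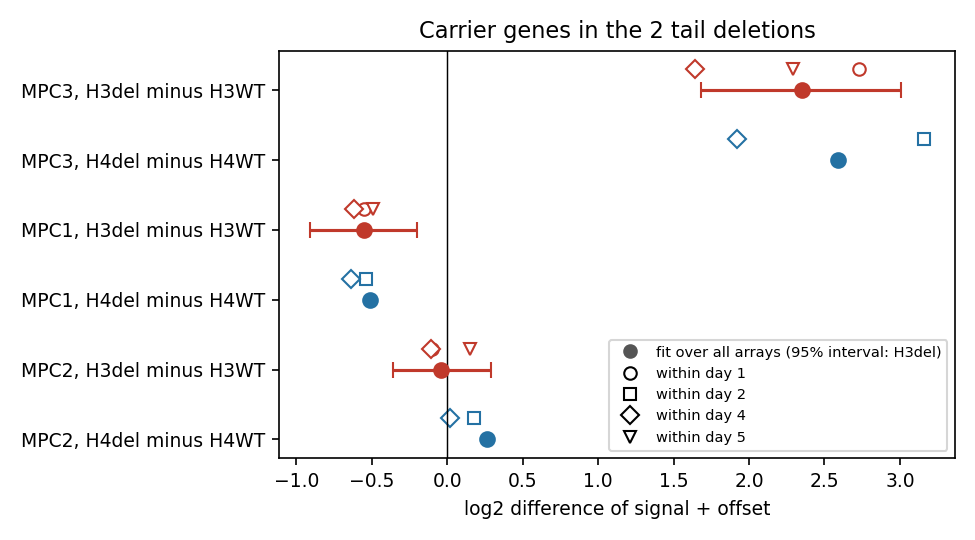
Log2 difference of each carrier gene in H3del against H3WT (red) and H4del against H4WT (blue). Filled points are the fit over all arrays, with bars for the 95% interval in H3del, and open symbols are differences within 1 hybridization day. MPC3 lies between 1.64 and 3.16 on each day, MPC1 between -0.64 and -0.49, and the MPC2 interval in H3del covers 0.

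Across the 14 arrays the log2 signals of MPC1 and MPC3 had a Pearson r of -0.749. After the group means were removed r was 0.207, so the opposite course of the 2 genes lay between the groups and not among arrays of a group. MPC2 had an r of 0.092 with MPC1 and 0.286 with MPC3, and 0.642 and 0.499 after the group means were removed. These are descriptions over arrays that share scaling and days.

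The genes whose log2 signal ran most like that of MPC3 over the 14 arrays, among 5427 probe sets of other single genes, were MAL33 (r = 0.941), ECM10 (0.939), SGA1 (0.929), COS8 (0.928) and YAT2 (0.908). SGA1 encodes a glucoamylase of sporulating cells and YAT2 a carnitine acetyltransferase, which hands acetyl groups to carnitine for transport. ECM10 encodes a mitochondrial Hsp70, and MAL33 an activator of maltose genes. SGA1 averaged 677 ± 94.9 in H3del against 144 ± 23.6 in H3WT, and 492 ± 161 in H4del against 183 ± 46.3 in H4WT. YAT2 averaged 970 ± 219 in H3del against 431 ± 44.0 in H3WT, and 894 ± 206 in H4del against 503 ± 123 in H4WT. After the group means were removed the 5 correlations were 0.455 to 0.609, so most of the likeness lay in the group means. The COS8 and SGA1 probe sets are of kinds that can bind more than 1 transcript.

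MPC1 ran most like SAM3 (r = 0.932), a permease of S-adenosylmethionine, STE7 (0.906), a kinase of the pheromone pathway, PPN2 (0.906), a polyphosphatase, KNH1 (0.885), linked to beta-glucan synthesis, and VCX1 (0.881), a vacuolar calcium exchanger. These correlations stayed between 0.670 and 0.826 after the group means were removed. MPC2 ran most like the Ty element genes YBL100W-B (0.892) and YAR009C (0.873), UGA1 (0.883), an aminotransferase, RPL30 (0.873), a ribosomal protein, and UPS3 (0.855). The YBL100W-B and YAR009C probe sets are of a kind that can bind more than 1 transcript.

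Neither gene next to MPC3 on its chromosome passed the threshold in either deletion. In the RefSeq gene table MPC3 stands between YAP1802, a clathrin adaptor, and LSC2, a subunit of succinyl-CoA ligase. YAP1802 had log2 differences of 0.24 ± 0.16 in H3del and -0.38 ± 0.18 in H4del (limma, adjusted p = 0.446 and 0.171). LSC2 had 0.48 ± 0.20 and -0.16 ± 0.23 (limma, adjusted p = 0.189 and 0.679). LSC2 passed in H3del with the replicate block and with the day block (limma, adjusted p = 0.0155 and 0.0102). MPC2 stands next to YAP1801, the paralog of YAP1802, so the 2 carrier genes lie in matching surroundings. YAP1801 had 0.29 ± 0.19 and 0.61 ± 0.22 (limma, adjusted p = 0.453 and 0.0721). Beside MPC1, YGL081W rose in both deletions, by 0.86 ± 0.23 and 0.82 ± 0.26 (limma, adjusted p = 0.0279 and 0.0438). Both calls of YGL081W were lost with quantile normalization (limma, adjusted p = 0.124 and 0.0569). The H3del call was also lost without H3del replicate 1, 2 or 4 or H3WT replicate 1 or 2 (limma, adjusted p = 0.0542 to 0.0962). That in H4del was lost without any 1 of the H4del arrays, H4WT replicate 1 or 2, H3del replicate 1 or 2 or H3WT replicate 2, with the H4 arrays alone and with the day block (limma, adjusted p = 0.0541 to 0.203). KXD1 on the other side had -0.43 ± 0.25 and 0.21 ± 0.29 (limma, adjusted p = 0.388 and 0.661).

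Of 7 tested genes that make pyruvate or use it in the cytosol 1 rose and 0 fell in H3del, or 2 and 0 with either block, with a median log2 difference of 0.21 beside 0.02 over all tested probe sets. In H4del 0 rose and 1 fell, with a median of -0.16 beside -0.08 over all, where 7.79% of tested probe sets rose and 9.67% fell. In H3del 5.21% of tested probe sets rose. With the replicate block 9.33% rose in H3del, and in H4del 14.2% rose and 18.8% fell. With the day block 11.3% rose in H3del, and in H4del 12.5% rose and 17.3% fell. CDC19, the main pyruvate kinase, had 0.21 ± 0.11 in H3del and 0.16 ± 0.13 in H4del (limma, adjusted p = 0.345 and 0.429). PDC1, the main pyruvate decarboxylase, which turns pyruvate into acetaldehyde for ethanol, had 0.20 ± 0.13 and 0.12 ± 0.15 (limma, adjusted p = 0.427 and 0.638). PDC6, a minor isoform, rose by 0.78 ± 0.21 in H3del (limma, adjusted p = 0.0365) and fell by 1.53 ± 0.25 in H4del, where the adjusted p was 0.00106. Its signal averaged 882 ± 213 in H3del against 498 ± 64.2 in H3WT, and 893 ± 228 in H4del against 2584 ± 446 in H4WT. The H3del call of PDC6 was lost without H3del replicate 1, 2 or 4, H3WT replicate 1, 3 or 4 or H4del replicate 1 (limma, adjusted p = 0.051 to 0.119). With either block PDC5, another decarboxylase, also rose (0.55, adjusted p = 0.00976 and 0.00616 in limma).

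Genes that bring lactate or malate into pyruvate held the transporter JEN1, which carries lactate and pyruvate across the plasma membrane. JEN1 rose in both deletions, by 0.95 ± 0.22 in H3del and 1.10 ± 0.25 in H4del (limma, adjusted p = 0.0127 and 0.00954). Its signal averaged 338 ± 34.9 in H3del against 168 ± 28.9 in H3WT, and 569 ± 237 in H4del against 245 ± 32.9 in H4WT. With quantile normalization the H3del call was lost (adjusted p = 0.0801 in limma). CYB2, the lactate dehydrogenase of the intermembrane space, rose in H3del to 866 ± 247 against 348 ± 62.1 in H3WT, by 1.25 ± 0.25 (limma, adjusted p = 0.00451). In H4del CYB2 had 0.17 ± 0.29 (adjusted p = 0.723), and the H3 tail effect minus the H4 tail effect was 1.08 ± 0.38, which missed the threshold (adjusted p = 0.126) and passed with the replicate block (adjusted p = 0.0273). Of the 5 genes 2 rose and 0 fell in H3del, or 2 and 1 with either block, and 1 rose and 0 fell in H4del. The medians were -0.13 and -0.22. Of all tested probe sets 5.21% rose in H3del and 7.79% in H4del. With the replicate block 9.33% rose and 6.76% fell in H3del, and with the day block 11.3% and 9.33%.

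The route from acetaldehyde to acetyl-CoA goes around the carrier. Of its 8 genes 0 rose and 4 fell in H4del, where 9.67% of tested probe sets fell, with a median of -0.91 beside -0.08 over all. With the replicate block it was 0 and 6, where 18.8% fell, and with the day block 0 and 6, where 17.3% fell. ALD4, the main mitochondrial aldehyde dehydrogenase, averaged 3473 ± 1649 in H4del against 6677 ± 660 in H4WT, a change of -1.04 ± 0.24 (limma, adjusted p = 0.0096), which missed the threshold with the H4 arrays alone (adjusted p = 0.0622). The others were ALD2 (-1.06 ± 0.22), ALD3 (-1.11 ± 0.30) and ACS2, the main acetyl-CoA synthetase on glucose (-0.79 ± 0.20), with adjusted p of 0.00483, 0.0207 and 0.0155 in limma. ALD3 was lost without H4del replicate 1 or 2 (limma, adjusted p = 0.0637 and 0.0931), and ACS2 without H4WT replicate 2 or H4del replicate 1 or 3 and with the H4 arrays alone (limma, adjusted p = 0.0539 to 0.0666). Within days the median of the list was -1.21 on day 2 and -0.53 on day 4. Among genes that fell in H4del only with a block, ALD6 had -1.18 ± 0.47 without one. Its adjusted p in limma was 0.0324 with the replicate block and 0.0428 with the day block. The other ALD6 probe set had 0.08 in H4del. With the day block 0 rose and 2 fell in H3del, where 9.33% of tested probe sets fell. Without a block 0 rose and 1 fell in H3del, where 2.46% fell, with a median of -0.18. The 1 gene was ACS2, at 3546 ± 370 in H3del against 5427 ± 1031 in H3WT (-0.60 ± 0.17, adjusted p = 0.0462 in limma), a call lost without any 1 of the H3del arrays, H3WT replicate 2, 3 or 4, H4WT replicate 1 or 2 or H4del replicate 1 (adjusted p = 0.0514 to 0.142). It was also lost with quantile normalization, with the H3 arrays alone and without day 4 (limma, adjusted p = 0.0608, 0.0501 and 0.0963).

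The pyruvate dehydrogenase complex, which takes up the pyruvate that the carrier delivers, and its kinases and phosphatases gave 9 tested genes. In H3del 0 rose and 0 fell by limma, also with the replicate or day block, and 0 had an unadjusted p under 0.05, with differences from -0.27 to 0.40. Of all tested probe sets 5.21% rose and 2.46% fell in H3del. These shares were 9.33% and 6.76% with the replicate block and 11.3% and 9.33% with the day block. PDA1, the E1 alpha subunit, had -0.06 ± 0.11 in H3del and 0.04 ± 0.13 in H4del (limma, adjusted p = 0.82 and 0.865). In H4del 0 rose and 2 fell, where 9.67% of tested probe sets fell, or 0 and 1 with the day block, where 17.3% fell. The 2 were LPD1, the dihydrolipoamide dehydrogenase (-0.64 ± 0.18, adjusted p = 0.0266 in limma), and PKP1, a kinase that switches the complex off (-0.80 ± 0.24, adjusted p = 0.0319). The LPD1 difference was -0.13 on day 2 and -0.99 on day 4, and its call was lost with the day as a block, with the H4 arrays alone, without day 4 and without H4WT replicate 2 or 3 or H4del replicate 2 or 3 (limma, adjusted p = 0.0564 to 0.12). PKP1 was lost with the H4 arrays alone, without day 4 and without H4WT replicate 3 or any 1 of the H4del arrays (limma, adjusted p = 0.0568 to 0.106). The 8 genes of amino acid synthesis from mitochondrial pyruvate, such as the acetolactate synthase gene ILV2 and LEU4, gave no call in either deletion by limma, also with either block, with differences between -0.39 and 0.19. At an unadjusted p under 0.05 0 of them differed in H3del and 0 in H4del. Over all tested probe sets 20.1% had an unadjusted p under 0.05 in H3del and 31.4% in H4del. At an adjusted p under 0.05 7.79% rose and 9.67% fell in H4del. These shares were 14.2% and 18.8% with the replicate block and 12.5% and 17.3% with the day block.

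Of 15 tested TCA cycle genes 2 rose and 0 fell in H3del, or 3 and 0 with the replicate block and 5 and 0 with the day block, with a median of 0.22. In H4del 1 rose and 1 fell, with a median of 0.04. With the replicate block it was 1 and 2 and with the day block 3 and 2. Of all tested probe sets 5.21% rose in H3del, 9.33% with the replicate block and 11.3% with the day block. In H4del 7.79% rose and 9.67% fell, 14.2% and 18.8% with the replicate block and 12.5% and 17.3% with the day block. ACO1, aconitase, rose in both, by 0.82 ± 0.17 in H3del and 0.95 ± 0.20 in H4del (limma, adjusted p = 0.00566 and 0.00511). Its signal averaged 10789 ± 1422 in H3del against 6154 ± 1269 in H3WT, and 12931 ± 550 in H4del against 6783 ± 1367 in H4WT. CIT3, a mitochondrial citrate and methylcitrate synthase, rose in H3del to 472 ± 144 against 90.2 ± 11.3 in H3WT, by 2.13 ± 0.28 (limma, adjusted p = 0.000122). CIT3 was also dim in H4WT and H4del, with means of 96.2 and 121, so it entered the test through its H3del signal. In H4del it had 0.31 ± 0.32 (adjusted p = 0.538), and the H3 tail effect minus the H4 tail effect was 1.82 ± 0.42 for CIT3 (adjusted p = 0.0255), a contrast in which 3.68% of tested probe sets passed the threshold. SDH2, the iron-sulfur subunit of succinate dehydrogenase, fell in H4del (-0.74 ± 0.21, adjusted p = 0.0252 in limma), a call lost without H4WT replicate 3 or H4del replicate 1 or 2 (adjusted p = 0.0601 to 0.0949). It was also lost with quantile normalization and with the H4 arrays alone (limma, adjusted p = 0.106 and 0.0663).

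Among 27 tested genes of other mitochondrial carriers 1 rose and 1 fell in H3del, and 1 rose and 4 fell in H4del. Of all tested probe sets 5.21% rose and 2.46% fell in H3del, and 7.79% rose and 9.67% fell in H4del. The gene that rose in both was CRC1, the gene of the carnitine carrier, which brings acetyl-carnitine into the matrix. It rose to 333 ± 16.5 in H3del against 90.4 ± 14.3 in H3WT and to 390 ± 118 in H4del against 147 ± 40.0 in H4WT. The log2 differences were 1.71 ± 0.21 and 1.31 ± 0.24 (limma, adjusted p = 7.67e-05 and 0.00283). Like MPC3, CRC1 was dim over the wild-type arrays and entered the test through its signal in the deletion arrays. With either block TPC1, a thiamine pyrophosphate carrier, also rose in H3del, and DIC1, a dicarboxylate carrier, in H4del (limma, adjusted p = 0.026 and 0.0366 with the replicate block). In H3del MRS4, an iron carrier, fell (-0.93 ± 0.20, adjusted p = 0.00838 in limma), and 2 genes fell with the replicate block and 3 with the day block. In H4del YMC1 (-1.04 ± 0.20), the citrate carrier CTP1 (-0.89 ± 0.21), the oxodicarboxylate carrier ODC2 (-0.99 ± 0.27) and YHM2 (-0.81 ± 0.24, adjusted p = 0.0334 in limma) fell, and 7 genes did with the replicate block and 6 with the day block. ODC2 was lost without H4WT replicate 2 or 3 or H4del replicate 1 or 2 (limma, adjusted p = 0.0514 to 0.102), with quantile normalization (0.0801) and with the H4 arrays alone (0.0639). CTP1 was lost without H4WT replicate 2 and with the H4 arrays alone (limma, adjusted p = 0.0621 and 0.0503). YHM2 was lost without H4WT replicate 1 or 2 or any 1 of the H4del arrays, with quantile normalization and with the H4 arrays alone (limma, adjusted p = 0.0579 to 0.135). The medians were 0.01 in H3del and 0.06 in H4del, beside 0.02 and -0.08 over all tested probe sets. With the replicate block 6.76% of all tested probe sets fell in H3del and 18.8% in H4del, and with the day block 9.33% and 17.3%. With the replicate block 9.33% rose in H3del and 14.2% in H4del, and with the day block 11.3% and 12.5%. SFC1, the succinate and fumarate carrier, was too dim to be tested and averaged 170 ± 10.9 in H3del against 49.4 ± 4.63 in H3WT, with an adjusted p of 0.000173 in the limma fit of all probe sets.

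**Figure D3:**
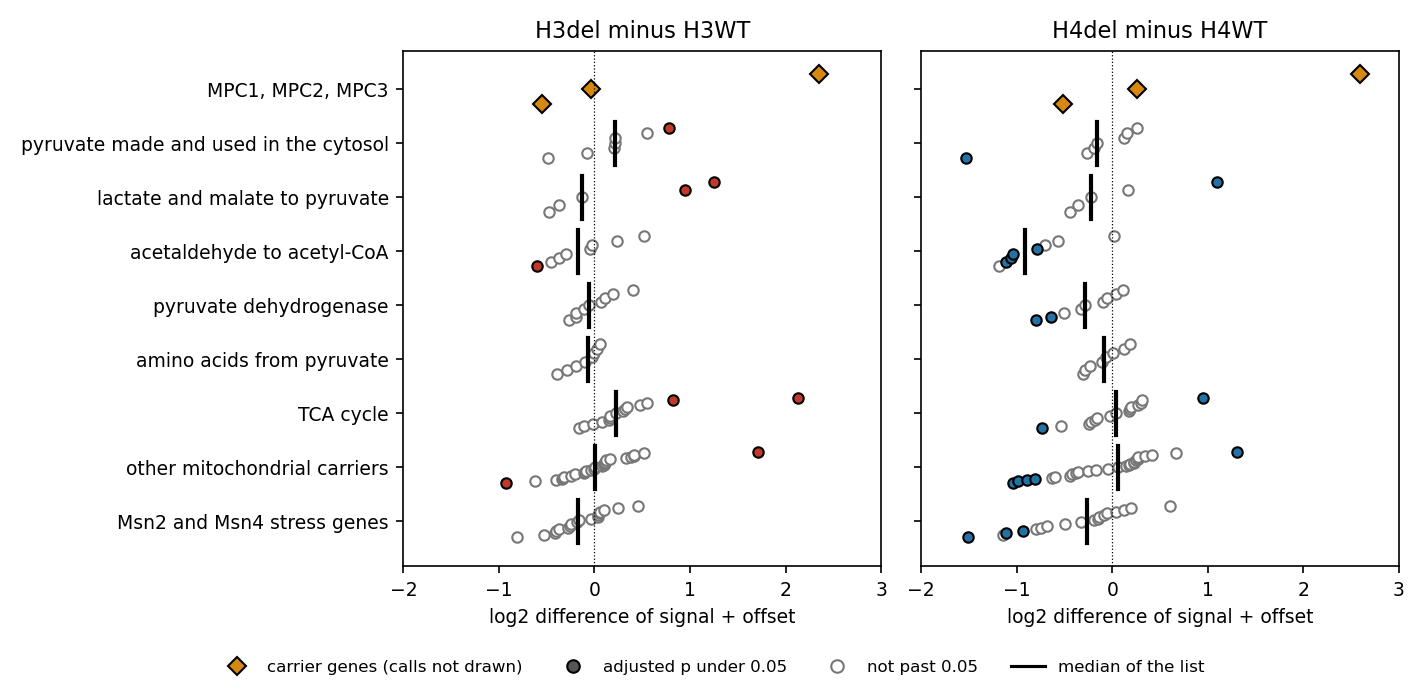
Log2 differences of the carrier genes (orange) and of the tested genes of 8 lists in H3del against H3WT (left) and H4del against H4WT (right). Filled circles passed an adjusted p of 0.05 in limma, and black bars are list medians. MPC3 lies at 2.35 and 2.59, to the right of all listed genes in both panels. It was taken to be chosen for its higher H4del signal, so its place in the right panel is only a description. Whether H3del values also entered the choice is not known. The acetaldehyde list has its median at -0.91 in H4del.

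Beside the carrier, 18 targets of the general stress factors Msn2 and Msn4 were followed. In H3del 0 rose and 0 fell by limma, also with the replicate block, with a median of -0.17. Of all tested probe sets 5.21% rose and 2.46% fell there, or 9.33% and 6.76% with the replicate block. At an unadjusted p under 0.05 0 of the targets rose and 1 fell, where 20.1% of tested probe sets differed in either direction. With the day block 1 rose, GRE1, and 2 fell, PGM2 and GSY2 (limma, adjusted p = 0.0452, 0.0221 and 0.0344). With that block 11.3% of tested probe sets rose and 9.33% fell. In H4del 0 rose and 3 fell, where 9.67% of tested probe sets fell, with a median of -0.26. With the replicate block it was 0 and 6, where 18.8% fell, and with the day block 0 and 7, where 17.3% fell. HSP26, a small heat shock protein, had the largest decrease, to 1680 ± 649 in H4del against 4649 ± 1238 in H4WT (-1.51 ± 0.29, adjusted p = 0.00302 in limma). The other 2 were GRE1 (-0.93 ± 0.26, adjusted p = 0.0224 in limma) and ALD3, which is also on the acetaldehyde list. GRE1 was lost without H4WT replicate 2 or 3 or H4del replicate 2 or 3 (adjusted p = 0.05 to 0.082).

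Transcripts of the mitochondrial genome were nearly absent from the H4del arrays. The summed signal of 8 mitochondrially encoded genes was 57.0, 58.0 and 24.7 on the H4del arrays, against 8661, 2470 and 14231 in H4WT. All 8 genes had mean signals at or under the offset in H4del, OLI1 at 2.33 and COX1 at 4.50 among them. Some of the 8 were that dim in other groups too, 1 in H4WT, 2 in H3WT and 1 in H3del. Only 2 of the 8, OLI1 and COX1, were bright enough to be tested. In H3del the sum ran from 2930 to 11534, against 2294 to 11508 in H3WT. In H3del these sums lay in the range of the wild types, and in H4del they lay far below it. The part of mitochondrial transcripts in the values of the carrier and pathway genes was not tested in either deletion. The 10 control probe sets for ribosomal RNA also ran with the deletions, with a median signal per array of 241 to 679 in H3del against 64.8 to 302 in H3WT, and 1107 to 2190 in H4del against 104 to 376 in H4WT. On each day every H3del array lay above the H3WT arrays, with 679 and 369 against 124 and 80.9 on day 1, 642 against 302 on day 4 and 241 against 64.8 on day 5. The signal at the 3 prime end of the actin mRNA over that at its 5 prime end, which grows as RNA breaks down, was 1.54 to 2.89 in H3del against 1.56 to 2.15 in H3WT, and 1.54 to 1.99 in H4del against 1.48 to 1.82 in H4WT. For H3del against H3WT it was 2.89 and 2.61 against 1.95 and 2.15 on day 1, 1.54 against 1.56 on day 4 and 2.74 against 1.94 on day 5, where MPC3 differed by 2.73, 1.64 and 2.29 on the log2 scale. The part of ribosomal RNA and RNA quality in the differences of MPC3, MPC1 and the pathway genes was not tested.

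**Figure D4:**
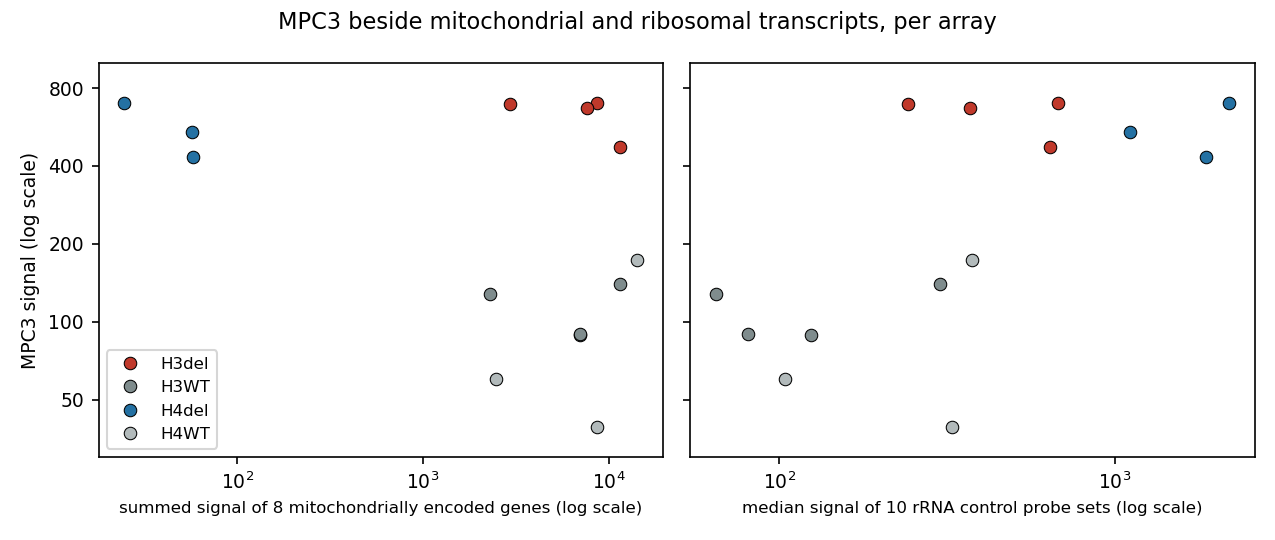
MPC3 signal of each array (log scale) against the summed signal of 8 mitochondrially encoded genes (left, log scale) and the median signal of 10 ribosomal RNA control probe sets (right, log scale). H4del arrays (blue) lie far to the left in the first panel with sums of 24.7 to 58.0. H3del arrays (red) share the range of the wild types (grey) there. A relation of MPC3 to either quantity was not tested.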

How the data were processed

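Per the submitters' processing notes the authors made the signal intensity of each probe set with MAS5, and the deposited values are on a linear scale. No version of MAS5 is given by the sources used here, and detection calls were not used here. The 2% trimmed mean of the arrays lay between 1500.83 and 1501.18, and no scaling was added. The table held 9335 probe sets, 60 of them controls. The others were named through the platform's annotation, which can be old, updated by Entrez gene ID to RefSeq symbols (assembly R64), with 6504 assigned to 1 gene. GPI13, which also carries MPC1 as an older name, was kept apart in this way. For a gene with several probe sets the brightest was used.

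Signals were turned to log2 after 16.9, their 10th percentile, had been added. Tests ran on the 6492 probe sets whose mean log2 exceeded the 30th percentile. Linear models with 1 mean per group (10 residual degrees of freedom) were fitted to all arrays in limma 3.58.1 (lmFit, eBayes with a trend) under R 4.3.3. P-values were adjusted by Benjamini-Hochberg over all tested probe sets, with a threshold of 0.05. The fits were tested on simulated data with independent noise and no effect of day or replicate, so that test does not cover such effects. Tables and plots used python 3.11.15, numpy 2.4.6, pandas 2.3.3 and matplotlib 3.10.9. Intervals of 95% are limma's. The number of arrays limits the precision. Spearman correlations between arrays of a group were 0.9676 to 0.9922, and no 2 arrays had more than 0.345% of values in common.

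The carrier genes and the gene lists were chosen with earlier results of these data known. From each list up to 4 genes past the threshold were named per deletion, by smallest adjusted p, together with the main isoforms of enzymes, and for each carrier gene the 5 genes with the highest Pearson r. List members outside that rule, namely SFC1, TPC1, DIC1, PDC5 in H3del, ALD6 and YHM2, were chosen after their values were seen.

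On day 1 replicates 1 and 2 of H3del and H3WT were hybridized, on day 2 H4del replicates 1 and 2 with H4WT replicate 1, day 3 H4WT replicate 2, day 4 replicate 3 of all groups and day 5 H3del and H3WT replicate 4. With the day as a block (6 residual degrees of freedom) H4WT replicate 2 drops out of the values. Deviations from the group means of same-numbered arrays correlated at 0.263 to 0.638 between H3del and H3WT (4 pairs), 0.278 to 0.520 between H4del and H4WT (3 pairs) and 0.268 to 0.501 between the wild types (3 pairs). An alternative fit therefore had the replicate number as a block, with 7 residual degrees of freedom. All 4 same-numbered pairs of H3del and H3WT shared a day, as did 2 of 3 pairs of H4del and H4WT and 1 of 3 pairs of the wild types.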

Additional observations from a re-analysis of the deposited data

Results flagged for a closer look

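Arrays of the 4-array groups were checked with Dixon's gap over range for the 3 carrier genes on the log2 scale. At its 95% critical value chance alone marks about 5% of groups. H3del replicate 3 stood apart for MPC3 as the lowest of its group (471.5, with the others between 672.4 and 703.2), with a gap of 0.887 of the range. H3WT replicate 3 stood apart for MPC2 as the highest (11299.6, with the others between 9111.3 and 9176.5), with a gap of 0.967. Both arrays were hybridized on day 4.

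The H3 tail effect minus the H4 tail effect passed the threshold for 8 of the 21 named list genes in limma. It did so for 3.68% of all tested probe sets. The 21 genes were named for calls in H3del or H4del, which enter this contrast, so the count is a description and no test. The contrast was 7.90 for OLI1 and 7.01 for COX1, whose signals were near 0 in H4del. It was 2.31 for PDC6, 1.82 for CIT3, 1.57 for HSP26, 1.39 for GRE1, 1.30 for ALD2 and 1.20 for YMC1. Of these, PDC6 and CIT3 rose in H3del, and PDC6, HSP26, GRE1, ALD2 and YMC1 fell in H4del. PDC6 averaged 882 in H3del and 893 in H4del, against 498 in H3WT and 2584 in H4WT. Its wild types thus differed while its deletions were alike, and the H3 and H4 strains also differ in plasmid and medium.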

How the results depend on the processing

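MPC3 kept its direction and its call in H3del under all alternatives run, with log2 differences from 1.88 to 2.58. Its difference in H4del lay between 1.94 and 3.10, and MPC2 gave no call in H3del under any of them. The MPC1 difference in H3del was -0.55 without a filter, with the replicate block and with the day block, and passed in each. It lay between -0.65 and -0.46 when single arrays were left out, and passed without H3del replicate 3 (adjusted p = 0.049 in limma), H3WT replicate 4 (0.0333) or H4WT replicate 3 (0.0492). The count of probe sets past the threshold in H3del was 498, against 1338 with the day block and 1045 with the replicate block, and 330 to 570 without single arrays. In H4del it was 1134, against 1933 and 2144 with these blocks, 655 with the H4 arrays alone, 1774 without the arrays of day 4 (chosen after seeing the data) and 585 to 1498 without single arrays. For H3WT minus H4WT it was 221, against 511 with the replicate block, 100 with the wild types alone, 669 without day 4 and 137 to 305 without single arrays. For the H3 tail effect minus the H4 tail effect it was 239, against 368 with quantile normalization, 1078 with the day block, 1035 with the replicate block, 748 without day 4 and 117 to 469 without single arrays. No result past the threshold changed direction. MPC2 in H3del lay between -0.09 and 0.04 without single arrays, with its sign turned without H3del replicate 2 (0.03) or H3WT replicate 3 (0.04). The replicate block changed the calls of MPC1, of LSC2 in H3del and of CYB2 for the H3 tail effect minus the H4 tail effect, and the list counts as given above, and ended no call of a named list gene. Of 26 calls of named list genes 14 were kept under every alternative. The cause of these shifts was not tested. Signals near the offset limit the size of the MPC3 change.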

Other observations

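The wild types differed in a few genes around pyruvate although neither lacks a histone tail. In H3WT against H4WT the minor decarboxylase PDC6 fell by 2.33 ± 0.23 on the log2 scale and PDC5 fell by 1.13 ± 0.19 (limma, adjusted p = 7.04e-05 and 0.0033). SDH2 and SDH4, subunits of succinate dehydrogenase, rose by 0.96 ± 0.20 and 0.79 ± 0.17 (limma, adjusted p = 0.0105 and 0.0154). The calls of SDH2 and SDH4 were lost in the fit with a day block (limma, adjusted p = 0.322 and 0.137), while those of PDC6 and PDC5 held (adjusted p = 6.46e-05 and 0.00151). Histone strain, plasmid and medium differ together between these groups and cannot be told apart. These genes were chosen after their values were seen. They were 2 of 7 tested genes of pyruvate in the cytosol and 2 of 15 of the TCA cycle. The dehydrogenase, acetaldehyde, amino acid, lactate and other carrier lists gave 0 calls between the wild types. Of all tested probe sets 3.40% passed there.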
